A study of Mus musculus with 45 samples.

Results

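Very wide accessible peaks were defined as peaks on the 19 autosomes that spanned at least 2500 bp in the deposited peak list. They numbered 1331 of 181509 autosomal peaks (0.733%) and of 184964 peaks in all. They covered 3.83 Mb, which is 2.76% of the bases in autosomal peaks. Their median width was 2760 bp (quartiles 2606.5 and 3033.5 bp), against 636 bp for all autosomal peaks, and the widest spanned 6218 bp. A further 35 peaks of this width on the X and Y chromosomes and 10 elsewhere off the autosomes were left out by the definition. Width was set by peak calling on the merged libraries of the time series, so it belongs to no single sample and was not compared between conditions.

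Accessible chromatin is DNA that is not tightly wrapped in nucleosomes and that transcription factors, RNA polymerase or a transposase can reach. Most accessible sites are about as long as a gap between nucleosomes, whereas broad open regions are known from the promoters of active genes with many CpG dinucleotides and from clusters of enhancers, in which several factor binding sites lie close together. SOX2, a factor with an HMG box, and OCT4, a POU factor encoded by Pou5f1, often bind side by side in embryonic stem cells and can open nucleosomal DNA. NANOG, a homeobox factor, belongs to the same network that keeps these cells pluripotent.

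ATACseq, in which the Tn5 transposase tags accessible DNA, was performed in 3 lines of mouse embryonic stem cells to measure how accessibility responds to the acute loss of one factor. SOX2-FKBP and NANOG-FKBP cells are E14 cells, the former of the IB10 stock, and OCT4-FKBP cells are V6.5 cells, so the factor depleted and the parental line cannot be told apart where OCT4-FKBP is set against the other lines. In each line the FKBP F36V domain was fused to the named factor, and 500 nM dTAG-13 directs the fusion protein to the proteasome. Untreated cells (NT) carried the same tag and received DMSO. SOX2-FKBP cells were measured in NT and after 0.5, 1, 2, 6 and 24 h with 2 libraries each, OCT4-FKBP cells in NT and after 2, 6 and 24 h with 2 libraries each, and NANOG-FKBP cells in NT with 2 libraries and after 2, 6 and 24 h with 3 libraries each. The methods describe the SOX2-FKBP and NANOG-FKBP cells as homozygous clones picked after editing, and growth in serum-free medium with LIF and inhibitors of MEK and GSK3-β. The methods mention an independent clone for SOX2, and the labels do not say whether a library here comes from it or whether replicates are separate cultures, so p-values measure the spread between these libraries, which may be technical. The accessible sites were those of stem cells: all 8 of 8 genes that mark embryonic stem cells had a peak at their start, with 17.4 to 126 CPM (counts scaled to the size of the library by TMM) in NT libraries, against 0.411 to 17 in the nearest peaks of 8 genes that mark other cells, 2 of which had no peak within 500 bp of the start.

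Total counts ranged from 5664738 to 10887645 per library in SOX2-FKBP, from 6378962 to 17575631 in OCT4-FKBP and from 1817191 to 12437876 in NANOG-FKBP, and the very wide peaks took 3.20 to 3.42%, 3.46 to 4.07% and 3.36 to 4.05% of the autosomal counts. The treated NANOG-FKBP replicate 2 libraries stood apart, with 13.2 to 17.6% of their counts on the mitochondrial genome against 1.42 to 6.65% in all other libraries. Chromosome 8 held 5.51 to 5.80% of the counts in NANOG-FKBP NT replicate 1 and treated replicates 1 and 2, and 7.0 to 7.1% in NT replicate 2 and treated replicate 3. It held 7.41 to 7.71% in OCT4-FKBP and 5.17 to 5.35% in SOX2-FKBP.

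Sequences at the summits of some of the very wide peaks that fell furthest are shown because SOX and POU factors read short DNA words. Windows of 120 bp centred on the summit are given for 5 of the 12 peaks that had the 3 largest losses at 2 h or 24 h in a line, all on the plus strand of mm10, and capitals mark ATTGT, the core of a SOX site, or ATGCAAA, the longer arm of the POU octamer, on either strand.

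near Cps1, chr1:67935947-67936066: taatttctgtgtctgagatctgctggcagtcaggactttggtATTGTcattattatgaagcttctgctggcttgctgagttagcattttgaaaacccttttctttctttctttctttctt

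near Pdcd6ip, chr9:113458967-113459086: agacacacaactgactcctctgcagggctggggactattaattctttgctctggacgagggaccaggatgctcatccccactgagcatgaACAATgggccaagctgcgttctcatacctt

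near Mgat4e, chr1:134535229-134535348: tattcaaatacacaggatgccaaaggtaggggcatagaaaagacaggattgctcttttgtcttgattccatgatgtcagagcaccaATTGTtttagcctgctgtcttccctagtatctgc

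in Enox1, chr14:77519579-77519698: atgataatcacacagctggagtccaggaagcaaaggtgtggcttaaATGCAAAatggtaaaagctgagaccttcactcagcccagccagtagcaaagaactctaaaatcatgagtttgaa

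in Ubl7, chr9:57921025-57921144: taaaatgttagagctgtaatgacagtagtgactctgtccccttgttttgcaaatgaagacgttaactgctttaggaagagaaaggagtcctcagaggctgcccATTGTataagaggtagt

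The first 3 and the Ubl7 window carry the SOX core, and the Enox1 window carries ATGCAAA. Of the 12 windows, 4 held ATTGT, 2 held ATGCAAA and 6 held neither. In the same 120 bp window, ATTGT was present in 15.4% of all autosomal peaks and in 16.9% of very wide peaks away from gene starts and ends, and ATGCAAA in 3.09% and 4.47%. Both short forms were chosen after the losses were known, and these matches are a description of the letters.

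More than 1 in 2 of the very wide peaks lay at promoters. A peak was called a promoter where it came within 500 bp of an annotated gene start, a gene end where its summit lay within 2000 bp of the end of a coding transcript, and other distal otherwise. Promoters made up 697 of 1331 very wide peaks (52.4%), against 10.9% of all autosomal peaks, gene ends 97 (7.29%, against 6.55%) and other distal peaks 537 (40.3%, against 82.6%). Across width classes the promoter share was 2.64% under 500 bp, 6.24% from 500 to 1000 bp, 24.4% from 1000 to 1500 bp, 37.4% from 1500 to 2000 bp and 43.7% from 2000 to 2500 bp.

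**Figure D1:**
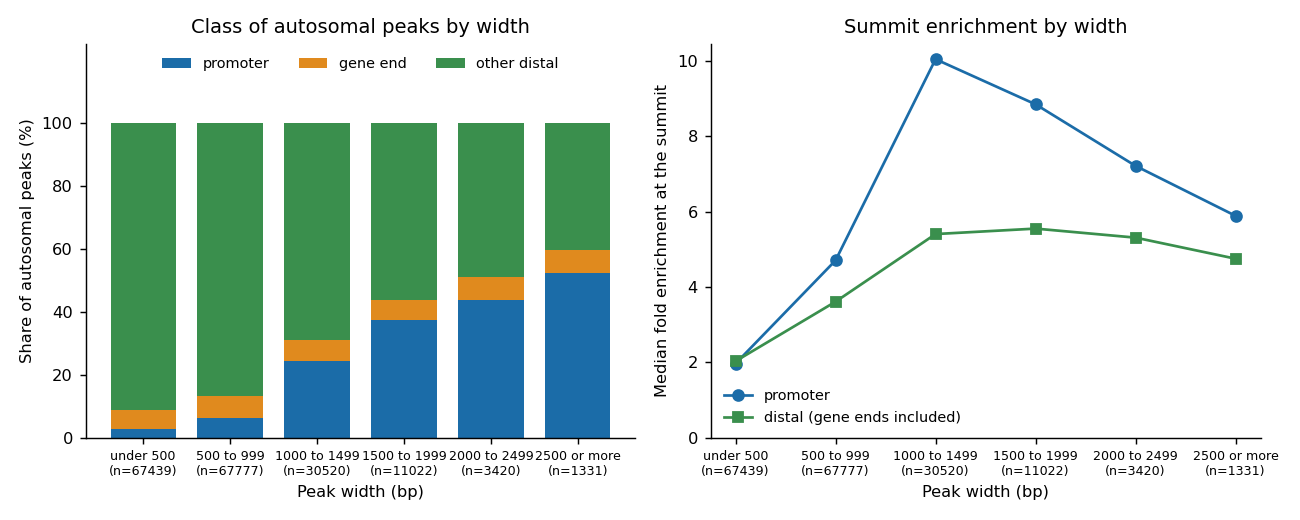
Left, share of autosomal peaks in each class (%) by peak width in bp, with the number of peaks under each bar. Right, median fold enrichment at the summit by width for promoter peaks and for distal peaks with gene ends included. Promoters rise to 52.4% of the peaks of 2500 bp or more, while their median enrichment is highest, at 10.0, from 1000 to 1500 bp and falls to 5.89.

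Of the 697 very wide promoter peaks, 624 held the start of a coding gene or lay next to one, 73 had only non-coding starts, and 31 had coding starts on both strands. The gene start lay inside 673 of them. The point of highest signal was often elsewhere: the summit lay within 500 bp of a start in 421, and over 1000 bp from one in 159. Very wide promoters were rich in GC and in CpG, with medians of 60% GC and an observed to expected CpG ratio of 0.658, whereas very wide other distal peaks had 49.7% and 0.254.

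Very wide distal peaks had no such CpG content. The median fold enrichment over the local background at the summit, as the peak caller gave it, was 4.87 in other distal peaks, against 2.94 for all autosomal peaks of that class and 5.44 for those from 2000 to 2500 bp. Very wide promoters had 5.89, against 7.55 for all promoters and 7.21 from 2000 to 2500 bp. The very wide peaks thus had the lower enrichment of these neighbouring widths in both classes. In NT cells of the SOX2-FKBP line the median level per kb of peak was 8.26 and 8.23 CPM in the promoters, 5.56 and 5.43 in the other distal peaks and 4.67 and 5.33 at the gene ends. Of the other distal peaks, 254 had their summit in an intron, 234 between genes and 49 in an exon, and their median distance to the nearest coding start was 23758 bp, with 155 over 50 kb away. The very wide peaks were spread over all autosomes, with 9.39% of them on chromosome 11, which holds 7.26% of autosomal peaks, and 200 of them lay within 50 kb of another.

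The widest peak, chr4:3050067-3056284 (6218 bp), spans the start of Gm27878, and the second, chr9:110083406-110088562 (5157 bp), lies at the end of Dhx30, which encodes an RNA helicase. The third, chr11:102316146-102320846 (4701 bp), is the promoter of Ubtf, a factor for transcription of ribosomal RNA genes. Next came chr4:3079888-3084434 (4547 bp), with 52.1% of its bases soft-masked as repeat, and chr2:26397551-26402031 (4481 bp), in an intron of Inpp5e, which encodes an inositol phosphatase. None of the 5 passed the test in any comparison made here. Among the 86 peaks of 3500 bp or more, 0 fell and 5 rose after 2 h of SOX2 depletion by edgeR, with 2 below NT at an unadjusted p under 0.05 and 0 called lower and 1 higher by DESeq2. Over all peaks tested 7.28% fell and 1.46% rose. The 5 that rose were nearest Nags, Ggnbp1, Frmd8, Rasgrp2 and Gm10382. The Frmd8 peak (chr19:5839865-5843649) is the one called the Neat1 peak below, which varied strongly between libraries of other lines. After 24 h, 5 of the 86 fell, nearest Col13a1, Socs2, Dcp2, Lrrc26 and Ei24, and 6 rose (over all peaks 14.1% and 9.17%). With OCT4, 7 fell and 11 rose at 24 h (12.7% and 10.8%). Repeats made up at least 50% of the bases in 32 of the 1331 peaks, and 0 matched the mitochondrial genome over 10% of their bases.

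At the limit of the definition, the narrowest members, at 2500 bp, included an intronic peak of Rcan1 (chr16:92410769-92413268), the Prss27 promoter (chr17:24036978-24039477) and the Zeb1 promoter on chromosome 18. Their means were 3.69, 13.9 and 22.3 CPM in SOX2-FKBP NT cells. The Ubl7 peak described below also spans 2500 bp. Just below the limit were the Wnt5a promoter (chr14:28509118-28511615, 2498 bp), the Satb1 promoter (chr17:51831373-51833870, 2498 bp) and the Rprd2 peak (chr3:95827480-95829976, 2497 bp), with means of 6.47, 16.2 and 4.20. Peaks on both sides of the limit had low and moderate levels.

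The first comparison asked which very wide peaks respond to the loss of SOX2 and when. A peak is called lost or gained where its counts were lower or higher than in NT with a Benjamini-Hochberg adjusted p under 0.05 in edgeR's quasi-likelihood test over all peaks tested, and all 1331 members were tested in every comparison. Losses came first, and gains were a feature of 24 h. At 0.5 h, 30 were lost and 2 gained (2.25% and 0.15%), where 3.14% and 0.158% of all peaks tested were, and the 2 were the peak nearest 4930535I16Rik and the Gm36033 promoter. At 1 h, 58 were lost and 15 gained (background 5.46% and 0.889%), and at 2 h 104 and 21 (7.28% and 1.46%). At 6 h, 131 were lost and 41 gained (9.28% and 2.66%), and at 24 h 237 and 156 (14.1% and 9.17%). The shares of members lost, 7.81% at 2 h and 17.8% at 24 h, lay close to and above the background. In this and the following results, fewer cells with an open site and less signal per cell cannot be told apart.

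The response differed by class. Of the 537 other distal peaks, 76 (14.2%) were lost at 2 h and 173 (32.2%) at 24 h, where 8.34% and 16.0% of all other distal peaks tested were. Gains at these times numbered 12 (2.23%) and 38 (7.08%), near the 1.61% and 7.4% of all other distal peaks tested. Of the 697 promoters, 25 (3.59%) were lost and 8 (1.15%) gained at 2 h, where 2.09% and 0.527% of all promoters tested were. At 24 h, 54 (7.75%) were lost and 108 (15.5%) gained. Among all promoters tested, 4.55% were lost and 21.1% gained at 24 h. Of the 97 gene ends, 3 were lost (nearest Bok, Arhgap1 and Ucp2) and 1 gained (nearest Ctsb) at 2 h, and 10 and 10 (10.3% each) at 24 h, near the 4.02% and 1.27%, and 8.64% and 8.69%, of all gene-end peaks tested. The median log2 fold change at 24 h was -0.16 in other distal peaks (-0.21 and -0.12 in the 2 libraries), 0.17 in promoters (0.04 and 0.26) and 0.04 at gene ends.

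**Figure D2:**
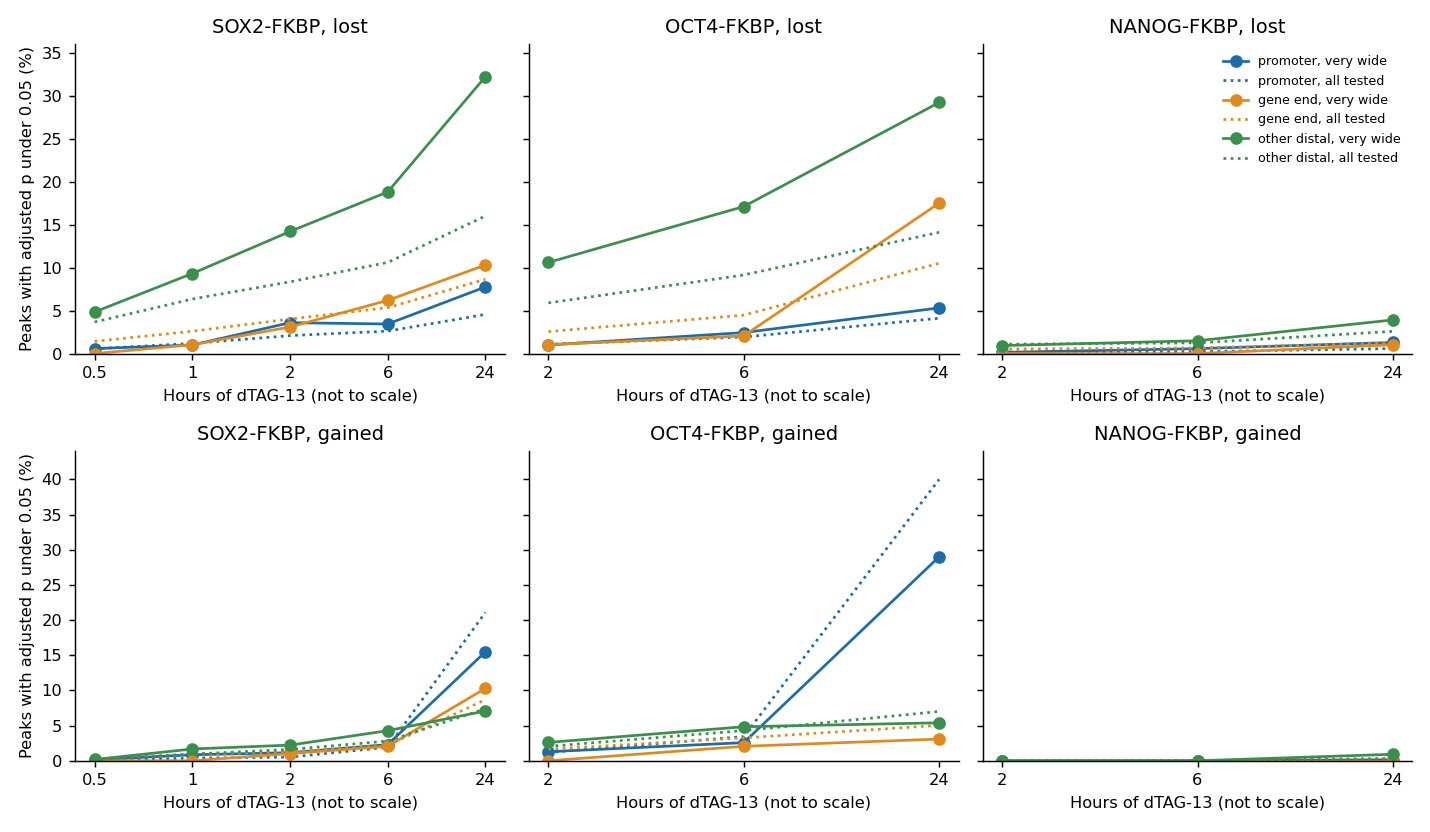
Share of peaks (%) lost (top) or gained (bottom) against NT at each time of dTAG-13 in hours, for SOX2-FKBP, OCT4-FKBP and NANOG-FKBP cells. Solid lines with points are the very wide peaks of each class and dotted lines all tested peaks of that class. The very wide other distal peaks lie above their class in losses (32.2% against 16.0% at 24 h in SOX2-FKBP), and the very wide promoters lie below theirs in gains (29.0% against 40% at 24 h in OCT4-FKBP).

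Libraries of this line with the same replicate number deviated together over the very wide peaks, and less so over all peaks. With the replicate as a block the counts lost and gained were 62 and 14 at 0.5 h, 104 and 37 at 1 h, 155 and 51 at 2 h, 176 and 93 at 6 h and 270 and 269 at 24 h. The gains depended on the scaling: at 24 h, offsets by level gave 319 lost and 83 gained, the block with GC offsets 349 and 123, and DESeq2 192 and 69, and at 2 h and 6 h scaling to total counts gave 90 lost and 45 gained, and 121 and 72. Among the very wide promoters the offsets by level turned the split at 24 h to 92 lost and 44 gained, and the block with GC offsets to 138 and 51.

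The deepest early losses were at intergenic peaks far from coding genes. The peak nearest Cps1 (chr1:67933844-67936550, 811 kb from its start), a gene of the urea cycle, held 12.7 and 16.5 CPM in the 2 NT libraries, 4.79 and 4.1 at 0.5 h, 2.18 and 2.22 at 1 h, 1.94 and 1.8 at 2 h and 1.77 and 2.05 at 24 h. All treated libraries lay below both NT libraries, and the level at 1 h was already near that of 24 h. Here and below a change is a log2 fold change against NT, and it was -1.67 (standard error 0.22, edgeR adjusted p = 5.93e-06) at 0.5 h and -2.94 (standard error 0.24, edgeR adjusted p = 6.97e-11) at 2 h.

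The peak nearest Pdcd6ip (chr9:113457460-113460296, 248 kb), which encodes a protein of endosomal sorting, fell from 33.6 and 38.5 in NT to 13.1 and 19.8 at 0.5 h, 6.57 and 8.14 at 2 h and 5.65 and 6.26 at 24 h, with a change of -2.28 (standard error 0.20, edgeR adjusted p = 1.55e-10) at 2 h. The peak chr3:17785546-17788071, nearest among coding genes to Cypt12, went from 25.5 and 22.2 to 6.68 and 7.86 at 2 h, with a change of -1.71 (standard error 0.23, edgeR adjusted p = 7.75e-07). Among the 32 peaks with at least 50% of their bases in repeats, 3 also fell (over all peaks tested 7.28% were lost at 2 h). The peak nearest Snx16 (chr3:11210966-11214290, 771 kb), a sorting nexin gene, went from 62.2 and 59.2 to 19.3 and 20 at 2 h (log2 fold change -1.63). The peak nearest Adgrf1 (chr17:43196019-43198850), an adhesion receptor gene, and that near Gm21060 (chr19:61283570-61286126) had log2 fold changes of -0.94 and -1.08.

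The largest losses at 24 h developed more slowly. The peak near Mgat4e (chr1:134533691-134536254), a gene of the MGAT4 family of glycosyltransferases, held 46.2 and 39.5 CPM in NT, 27.1 and 33.4 at 0.5 h, 18 and 18.9 at 2 h, 13.3 and 8.37 at 6 h and 3.55 and 5.5 at 24 h. Each later time lay below the earlier ones, and no treated library reached the NT range. Its log2 fold change was -1.22 (standard error 0.18, edgeR adjusted p = 2.91e-06) at 2 h and -3.24 (standard error 0.21, edgeR adjusted p = 6.56e-14) at 24 h. The peak near Kirrel (chr3:87192250-87195698, 3449 bp), a cell adhesion gene of the nephrin family, went from 51.2 and 52.6 in NT to 17.5 and 18 at 2 h and 5.77 and 6.69 at 24 h, with a change of -3.05 (standard error 0.18, edgeR adjusted p = 7.89e-15) at 24 h.

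Gains were smaller and, at 2 h, few. The peak nearest 4930535I16Rik (chr4:123998139-124000902) held 7.54 and 7.44 CPM in NT, 12.2 and 15.9 at 0.5 h, 15 and 13.1 at 2 h and 7.87 and 11 at 24 h. It was higher from 0.5 h to 6 h, with a log2 fold change of 0.90 (standard error 0.21, edgeR adjusted p = 0.00246) at 2 h, and did not pass the test at 24 h. The peak 7.56 kb from Insig1 (chr5:28078919-28081478), which encodes a sterol-regulated protein of the endoplasmic reticulum, went from 11.1 and 10.8 to 20.8 and 18.6 at 2 h and 18.7 and 17.6 at 24 h. Its 6 h libraries, 13.3 and 11.6, lay between these, and the log2 fold change at 2 h was 0.84 (standard error 0.18, edgeR adjusted p = 0.00108). The gene-end peak nearest Ctsb (chr14:63141483-63144351), a lysosomal protease, held 11.4 and 10.4 in NT and 18.2 and 17.9 at 2 h.

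Among the largest gains at 24 h, an intronic peak of Mef2d (chr3:88148755-88151319), a MADS-box transcription factor, went from 17.1 and 18.6 CPM in NT to 41 and 42.7 (log2 fold change 1.24), and one of Wdr86 (chr5:24711781-24714726) from 6.55 and 6.15 to 13 and 14.6 (1.11).

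After OCT4 depletion the very wide peaks split by class in a like way. At 2 h, 65 were lost and 23 gained, where 5.1% and 1.92% of all peaks tested were. At 6 h the counts were 111 and 46 (background 7.97% and 4.12%), and at 24 h 211 and 234 (12.7% and 10.8%), which is 15.9% and 17.6% of the members. Of the other distal peaks, 57 (10.6%) were lost at 2 h and 157 (29.2%) at 24 h, where 5.89% and 14.1% of all other distal peaks tested were. Of the promoters, 7 (1%) were lost and 9 (1.29%) gained at 2 h, near the 1.09% and 1.17% of all promoters tested. At 24 h, 37 (5.31%) were lost and 202 (29.0%) gained, against 4.11% and 40% of all promoters tested. Median log2 fold changes at 24 h were 0.36 in promoters (0.56 and 0.13 in the 2 libraries), -0.28 in other distal peaks (-0.33 and -0.29) and -0.33 at gene ends (-0.26 and -0.44).

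The gains at 24 h rested on few libraries: 41 remained without OCT4-FKBP 24 h replicate 1, 65 without NT replicate 2 and 142 without NT replicate 1, and 79 in a fit of this line alone, which gave 185 lost. Scaling to total counts gave 263 lost and 132 gained, offsets by level 317 and 86, and the block with GC offsets 353 and 180; at 6 h, offsets by level gave 164 lost and 29 gained. Libraries with the same number deviated together here too, and the block alone gave 113 lost and 80 gained at 2 h, 178 and 127 at 6 h and 303 and 373 at 24 h. For the promoters at 24 h the split was 92 lost and 61 gained with offsets by level and 120 and 102 with the block and GC offsets, and their median fell to 0.08 and 0.01, whereas the median of the other distal peaks at 24 h was negative in both lines under every other tool, scaling, filter or block.

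The Cps1 peak was among the largest losses at 2 h of OCT4 depletion too, from 12.7 and 13.1 CPM in NT to 3.48 and 3.28 at 2 h (log2 fold change -1.93). An intronic peak of Opcml (chr9:28613409-28615980), a neural cell adhesion gene, went from 17.3 and 20.1 to 4.55 and 5.57 at 2 h and 3.05 and 3.25 at 24 h, with a change of -1.88 (standard error 0.26, edgeR adjusted p = 2.48e-06) at 2 h. In both the NT and treated libraries did not overlap.

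At 24 h the deepest loss was the intronic Enox1 peak (chr14:77518115-77520680), in a gene for a cell surface oxidase, with ATGCAAA near its summit. Its level was 31.3 and 31.2 CPM in NT, 8.32 and 8.78 at 2 h, 4.26 and 4.94 at 6 h and 3.51 and 2.12 at 24 h, with a change of -3.46 (standard error 0.33, edgeR adjusted p = 4.05e-10). An intronic peak of Ttf1 (chr2:29073318-29076567, 3250 bp), which encodes a terminator of ribosomal RNA transcription, went from 26 and 31 to 2.75 and 3.42 (log2 fold change -3.21), and the Mgat4e peak from 42.5 and 61.1 to 4.28 and 11.4 (-2.74). These courses fell at each measured time in both libraries.

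Gains at 2 h were near Marc2 (chr1:184862585-184865211), a mitochondrial reductase gene, at the start of Gm36033 (chr9:63926620-63929476) and at the Prss27 promoter, a serine protease gene. The Marc2 peak held 7.64 and 12.2 in NT and 18 and 27.3 at 2 h (log2 fold change 1.19 (standard error 0.37, edgeR adjusted p = 0.0416)), the Gm36033 peak 11.3 and 9.69 and 26.6 and 19.6, and the Prss27 promoter 9.52 and 15.9 and 27.1 and 27.8. The Marc2 call at 2 h was lost in 6 alternatives, and those of the Gm36033 peak and the Prss27 promoter in 1 each. None of the 3 peaks passed the test at 24 h, where the Marc2 libraries held 9.47 and 19.5. At 24 h the largest gains were the Etv3 peak described below, the peak near Gm9964 (chr11:79306064-79308689), from 3.37 and 3.47 to 7.79 and 13.3, and that nearest Tnp1 (chr1:73361989-73364611, a gene for a sperm chromatin protein), from 4.19 and 5.88 to 14.4 and 15.3.

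Many of the losses were shared by the 2 lines, which have separate NT libraries. The same overlap over all peaks tested is not given here, so the sharing cannot be called particular to the very wide peaks. At 2 h, 39 peaks were lost in both, which is 37.5% of the SOX2 losses and 60% of the OCT4 losses. At 24 h, 148 were lost in both (62.4% and 70.1%) and 75 gained in both (48.1% and 32.1%). The SOX2 calls here come from the fit of that line alone and the OCT4 calls from the fit of 3 lines. With both from the latter, 25 peaks were lost in both at 2 h (53.2% of 47 and 38.5% of 65) and 106 at 24 h (71.1% of 149 and 50.2% of 211). Opposite calls were rare: 2 were lost with SOX2 and gained with OCT4 at 24 h, the Etv3 and Gadd45g peaks, and 3 the reverse, nearest Cobl, Trub2 and Camta1. The call of the Gadd45g gain with OCT4 was lost in 5 alternatives, and that of the Etv3 loss with SOX2 in 1. The 2 gained in both at 2 h were the Gm36033 and Prss27 promoters.

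The difference between the 2 responses was tested as the SOX2 change minus the OCT4 change in one fit of the 3 lines, each change taken against its own NT libraries. At 2 h the change was lower with SOX2 in 4 very wide peaks, among them those nearest Abcg2, Etv3 and Gadd45g, and lower with OCT4 in 4, nearest Tmc1, Opcml, Enox1 and Gm7030, where 1.2% and 0.374% of all peaks tested were called. At 24 h there were 12 and 22 (background 1.67% and 1.1%), and with the replicate as a block 34 and 21 at 2 h and 42 and 96 at 24 h. At 2 h the counts without 1 library ranged from 0 to 4 and from 0 to 5, so this test rested on single libraries. SOX2-FKBP and OCT4-FKBP cells also differ in parental line.

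**Figure D3:**
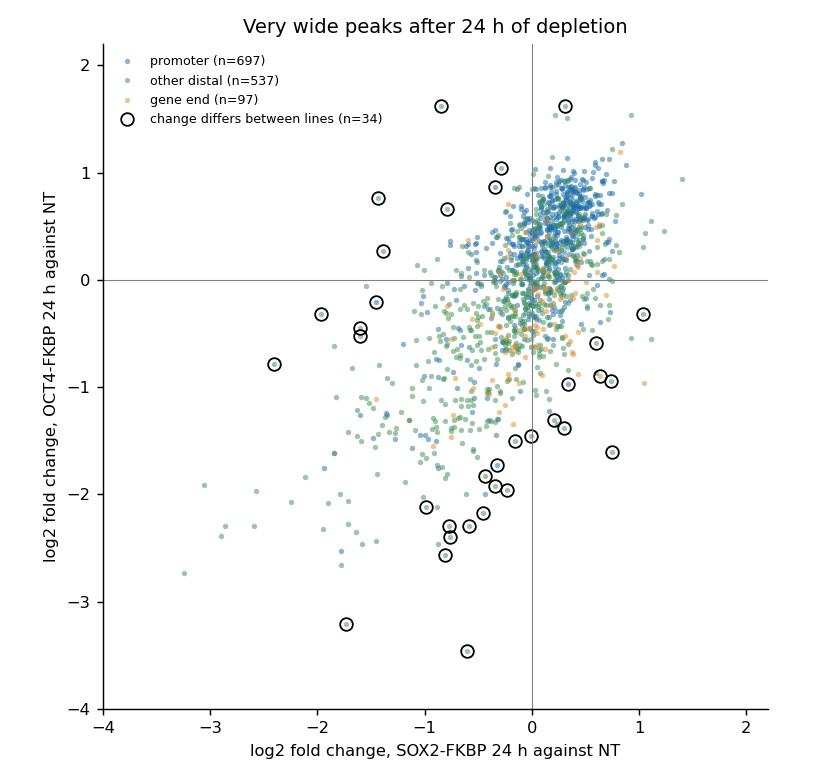
Log2 fold change against NT after 24 h in SOX2-FKBP cells (x axis) and OCT4-FKBP cells (y axis) for the 1331 very wide peaks, coloured by class, each line from its own comparison. The 34 open circles are peaks whose change differed between the lines. Most points lie along the diagonal from the distal losses to the promoter gains, and the lowest circle is the Enox1 peak at -3.46 in OCT4-FKBP and -0.61 in SOX2-FKBP.

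Of the peaks whose change was lower with OCT4, the Enox1 peak held 26.3 and 35.7 CPM in SOX2-FKBP NT cells, 22.8 and 20.8 at 2 h and 19.2 and 21 at 24 h, well above the 24 h level in OCT4-FKBP cells. The difference of the 2 log2 fold changes was 1.43 (standard error 0.37, edgeR adjusted p = 0.0315) at 2 h and 2.88 (standard error 0.43, edgeR adjusted p = 4.48e-05) at 24 h. The Opcml peak held 16.7 and 15 in SOX2-FKBP NT cells, 12.8 and 11.4 at 2 h and 9.42 and 8.74 at 24 h, and differed by 1.55 and 1.80. An intronic peak of Tmc1 (chr19:20923247-20925823), a gene for a channel of sensory hair cells, went from 21.2 and 24.7 to 18.9 and 17.8 with SOX2 and from 17.8 and 19.2 to 5.61 and 4.85 with OCT4 at 2 h. The Camta1 peak (chr4:151538368-151541252, in an intron of a calmodulin-binding transcription activator) rose from 18.8 and 19.7 to 35 and 29.8 with SOX2 at 24 h and fell from 5.25 and 6.67 to 2.29 and 1.63 with OCT4, a difference of 2.39 (standard error 0.44, edgeR adjusted p = 0.000824).

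The clearest peaks in the other direction moved up with OCT4 and down with SOX2. The peak 15.4 kb from Etv3 (chr3:87540973-87543527), an ETS-family repressor, held 9.72 and 9.38 CPM in SOX2-FKBP NT cells and 4.77 and 5.83 at 24 h, but 6.08 and 5.99 in OCT4-FKBP NT cells, 11.6 and 12.7 at 2 h and 13.9 and 23.3 at 24 h. The difference was -2.43 (standard error 0.38, edgeR adjusted p = 8.06e-05) at 24 h. A peak 72.0 kb from Gadd45g (chr13:51918726-51921577), a stress and differentiation response gene, went from 29 and 33.3 to 18.3 and 16.9 and 11.5 and 11.3 with SOX2 and from 21.8 and 21.4 to 32.1 and 32 and 45.7 and 27.8 with OCT4, at 2 h and 24 h. In both peaks every treated library of the 2 times lay on its own side of NT. The Abcg2 promoter (chr6:58594457-58597058), which drives a gene for an efflux transporter, fell from 24.1 and 27.8 to 8.94 and 12.6 with SOX2 at 2 h and held 18.1 and 24.9 and 24.5 and 27.6 with OCT4, a difference of -1.47 (standard error 0.32, edgeR adjusted p = 0.00758).

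NANOG depletion changed few of the very wide peaks. At 2 h, 6 were lost and 0 gained, where 0.938% and 0.0162% of all peaks tested were, and at 6 h 12 and 0 (1.08% and 0.0367%). At 24 h, 31 were lost and 6 gained (background 2.25% and 0.288%), which is 2.33% and 0.451% of the members. The counts of 0 gained are from edgeR; at an unadjusted p under 0.05, 37 were above NT at 2 h and 32 at 6 h, and DESeq2 called 0 at both. Over all peaks tested at 24 h, 2.58% of other distal peaks, 0.582% of promoters and 1.23% of gene ends were lost. Of the 31 very wide peaks lost at 24 h, 21 were other distal peaks (3.91% of that class) and 9 promoters (1.29%). The other 1 was a gene end, nearest Bok (1.03%). Without NT replicate 1 the losses at 24 h were 15, and without 24 h replicate 1 or 3 they were 20 or 18.

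Most NANOG losses among the very wide peaks were also lost in another line. The same share over all peaks lost with NANOG is not given here, so this cannot be called particular to the very wide peaks. Of the 31 at 24 h, 26 were among the 237 SOX2 losses, 23 among the 211 OCT4 losses and 20 among both, and 2 were in neither, nearest S100a1 and Baiap2l1. The Disc1 peak (chr8:125222851-125225576, in an intron of a gene for a neuronal scaffold protein) lost most, from 22.4 and 31.1 CPM in NT to 8.3, 5.23 and 10.7 at 2 h and 5.13, 3.18 and 7.25 at 24 h, with a change of -2.25 (standard error 0.30, edgeR adjusted p = 3.68e-06). It lies on chromosome 8, whose share of counts differed between NANOG-FKBP libraries. With that difference as a block, chosen after the data were seen, 35 very wide peaks were lost at 24 h. The Ubl7 peak (chr9:57920226-57922725, in an intron of a gene for a ubiquitin-like protein) fell in all 3 lines: from 15.5 and 11.3 to 3.42, 4.54 and 2.98 with NANOG, from 11.7 and 12.9 to 2 and 3.13 with SOX2 and from 14.8 and 19.6 to 3.67 and 4.56 with OCT4. Its log2 fold changes at 24 h were -1.97, -2.25 and -2.07. The Mgat4e peak also fell with NANOG, from 63.8 and 54.6 to 16.4, 16.3 and 15.8 at 24 h (log2 fold change -1.87 (standard error 0.25, edgeR adjusted p = 5.04e-06)).

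An intronic Ypel2 peak (chr11:86967346-86969951) responded to NANOG and OCT4, falling from 18.7 and 17.5 to 4.4, 5.9 and 6.21 and from 10.7 and 17.3 to 4.28 and 6.67 at 24 h, while in SOX2-FKBP cells it held 16.8 and 14.9 in NT and 13.1 and 10.6 at 24 h and passed the test at no time. Its SOX2 and OCT4 changes at 24 h were not shown to differ (0.98, edgeR adjusted p = 0.185). An intronic peak of Etnk1 (chr6:143173193-143175960), an ethanolamine kinase, went from 8.45 and 9.82 to 18.2, 18.2 and 17.3 (log2 fold change 0.97 (standard error 0.24, edgeR adjusted p = 0.0125)), and an intronic peak of Eps8 (chr6:137540536-137543329), a regulator of actin, from 17.7 and 20 to 28.3, 46.3 and 27.6, where the high value is the library with 17% mitochondrial counts. The Etnk1 call was lost in 3 alternatives and the Eps8 call in 9. The Eps8 peak fell to 15.7 and 19.2 from 46.4 and 46.9 with OCT4. The Cps1 peak, which fell early with SOX2, held 13.2 and 14.5 in NANOG-FKBP NT cells and 16.8, 19.1 and 14.9 at 24 h.

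The share of distal peaks that was lost rose with width and then levelled off. At 24 h of SOX2 depletion it was 8.66% under 500 bp, 15.2%, 23.6%, 28% and 27.3% in the next classes and 28.9% at 2500 bp or more, with gene ends included. With OCT4 it went from 8.01% to 27.4%. At 2 h of SOX2 depletion the share was highest from 1500 to 2000 bp (16.5%) and 12.5% at 2500 bp or more. For promoters, gains at 24 h of OCT4 depletion were most common from 1000 to 1500 bp (50.5%) and fell to 29% in the very wide peaks. The counts per peak rise with width as well, from a median of 1.52 to 14.5 CPM in distal peaks of SOX2-FKBP cells, and the part of this depth in the shares called was not tested.

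**Figure D4:**
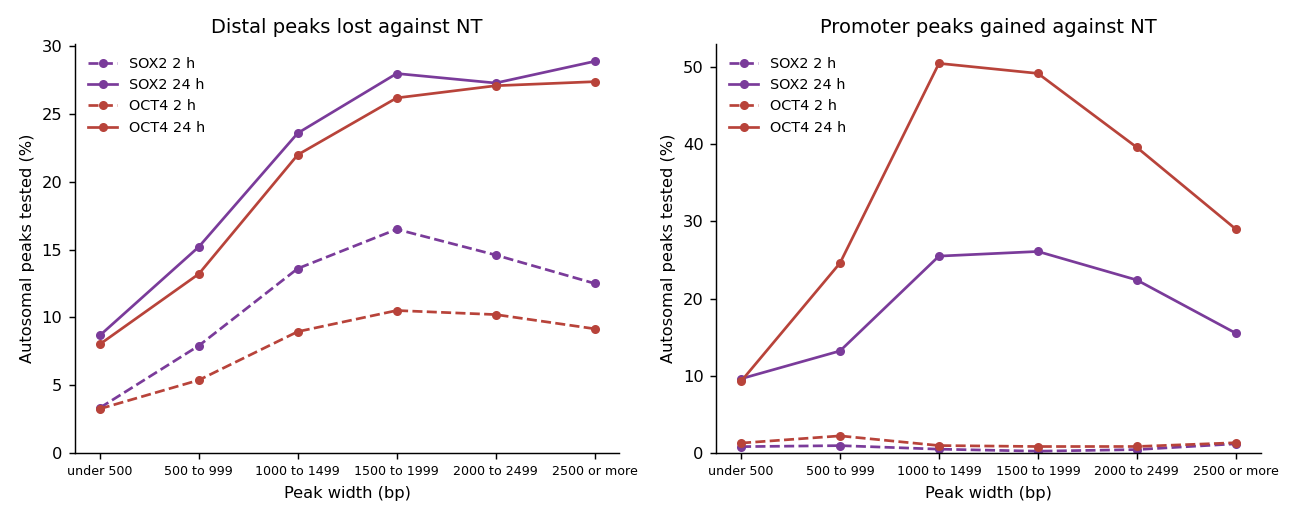
Share of autosomal peaks tested (%) by peak width in bp for distal peaks lost against NT (left, gene ends included) and promoter peaks gained (right), after 2 h (dashed) and 24 h (solid) of SOX2 (purple) or OCT4 (red) depletion. Distal losses at 24 h reach 28.9% and 27.4% in the widest class, and promoter gains with OCT4 fall from 50.5% at 1000 to 1500 bp to 29%.

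Genes of the pluripotency network had 10 very wide peaks, at or nearest the starts of Tfcp2l1, Zfp281, Mycn, Pou5f1, Sall4, Sox2, Lin28a and Tbx3. Of the 10, 5 were promoters. At 24 h of SOX2 depletion 14.1% of all peaks tested were lost, with 4.55% of promoters and 16.0% of other distal peaks. Among the very wide peaks 7.75% of promoters and 32.2% of other distal peaks were lost. In this gene group 6 of the 10 were lost and 0 gained. The group had a median log2 fold change of -0.71 against 0.05 for all very wide peaks and 0.04 for all peaks tested, and 1 was above NT at an unadjusted p under 0.05. With OCT4 4 were lost and 0 gained at 24 h (median -0.32). There 12.7% of all peaks tested and 29.2% of the very wide other distal peaks were lost. With NANOG 0 of the 10 were called at 24 h (median 0.07), where 1 lay below and 1 above NT at an unadjusted p under 0.05 and DESeq2 called 0.

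The Pou5f1 promoter (chr17:35503682-35506247), at the gene of OCT4 itself, held 83.3 and 89.9 CPM in SOX2-FKBP NT cells, 71.2 and 72 at 2 h and 49.5 and 45.5 at 24 h, with a change of -0.87 (standard error 0.14, edgeR adjusted p = 6.71e-06) at 24 h. In OCT4-FKBP cells it held 126 and 100.2 in NT and 79.9 and 54.2 at 24 h, and passed the test there too (-0.75, edgeR adjusted p = 0.0272). This OCT4 call was lost in 5 alternatives. A peak 53.3 kb from Zfp281 (chr1:136569104-136571646), a zinc finger factor of stem cells, responded early: 42.3 and 42.4 in NT, 15.8 and 20.2 at 2 h and 10.8 and 16.5 at 24 h with SOX2, and 27.5 and 29.1, 16.2 and 17.4 and 14 and 10.4 with OCT4. An intronic peak 11.7 kb from the start of Tbx3 (chr5:119656348-119658928), a T-box factor, fell at 24 h from 17.9 and 18 to 12.4 and 8.85 with SOX2 and from 20 and 27.2 to 7.79 and 10.1 with OCT4, after 2 h libraries of 23.4 and 26.6 and 20.6 and 28.4. The Mycn promoter (chr12:12941391-12943982) and the Lin28a promoter (chr4:134016721-134019834), a growth regulator and an RNA-binding protein, fell with SOX2 at 24 h, with log2 fold changes of -0.80 and -0.76.

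**Figure D5:**
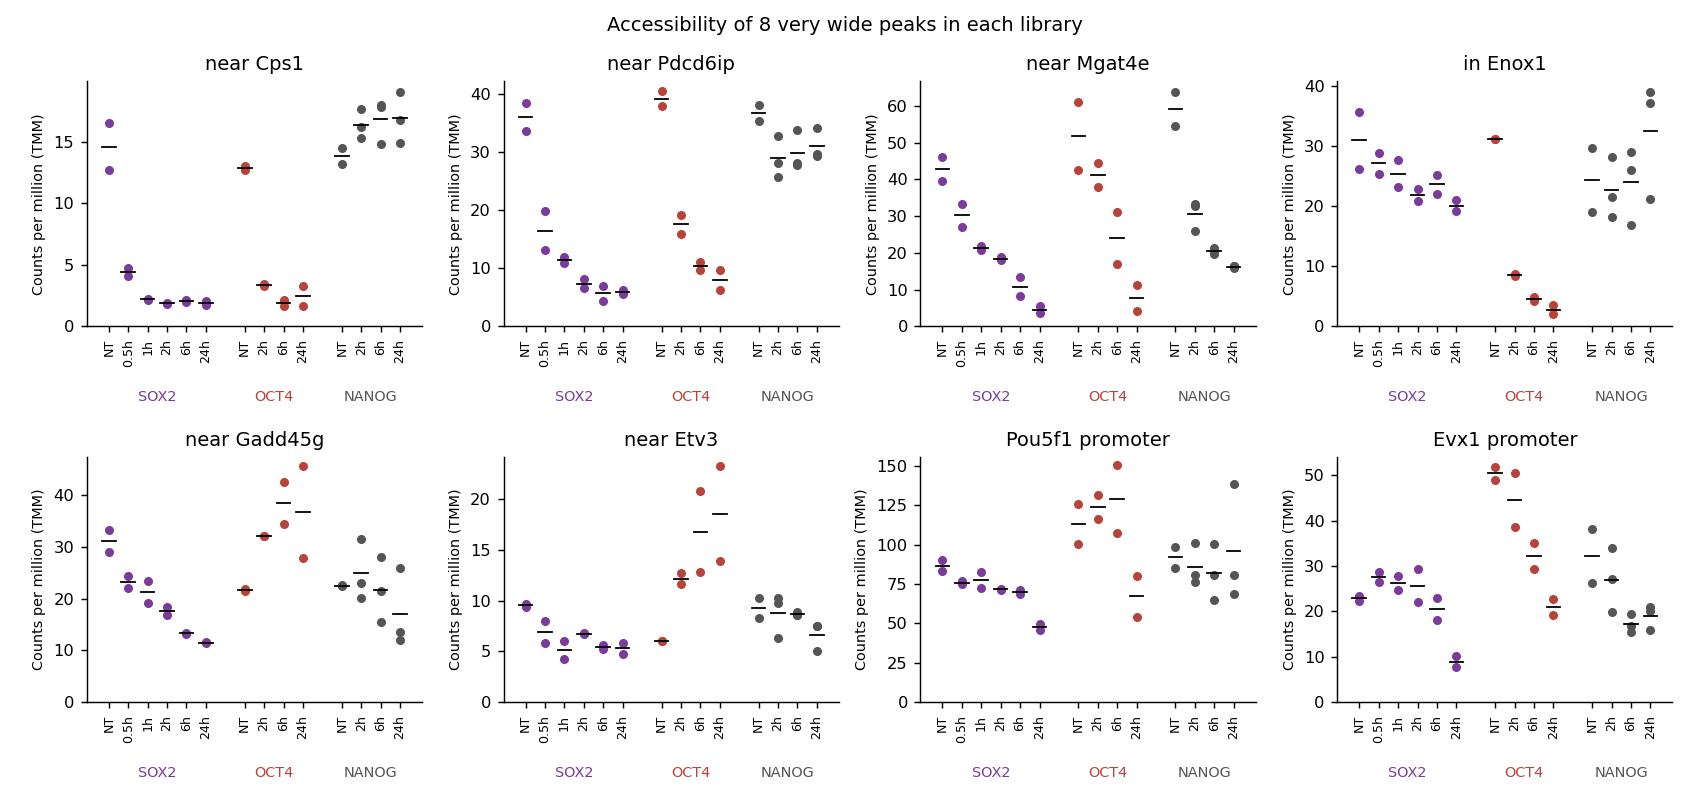
Normalized CPM (y axis, scaled by TMM) of 8 very wide peaks in each library, by time of dTAG-13 in the SOX2-FKBP, OCT4-FKBP and NANOG-FKBP lines. Points are single libraries and short lines group means. The Cps1 peak is near its lowest level at 1 h of SOX2 depletion (2.18 and 2.22), the Enox1 peak falls with OCT4, and the Gadd45g and Etv3 peaks move in opposite directions with SOX2 and OCT4.

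Genes of the formative and primed epiblast rise when cells leave the naive state. Of their 11 very wide peaks, 10 of them promoters, 7 were gained and 1 lost at 24 h of OCT4 depletion, where 40% of all promoters tested and 10.8% of all peaks tested were gained (median log2 fold change 0.70, against 0.09 for all very wide peaks), and 1 was gained and 1 lost with SOX2. The Sall3 promoter, at a zinc finger gene, went from 23 and 16.7 to 44 and 30.9 with OCT4 and from 19.6 and 19.9 to 27.2 and 39.9 with SOX2, with log2 fold changes of 0.92 and 0.76. The Pou3f1 promoter (chr4:124656667-124659577), at the gene of the POU factor OCT6, went from 27.8 and 24 to 51 and 33.2 (0.70), and the Sox11 promoter (chr12:27341170-27343861) from 25.7 and 27.2 to 58.3 and 28.8 (0.72). In each, 24 h replicate 1 was higher than replicate 2. The loss was the promoter of the homeobox gene Nkx1-2 (chr7:132599397-132601948), from 31.5 and 29.4 to 13.4 and 18.9 at 2 h and 13.1 and 8.62 at 24 h. The number of gains in this group ranged from 2 to 8 across the alternatives, with 3 under offsets by level or scaling to total counts.

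Of 17 very wide peaks at developmental patterning genes, 3 were lost and 0 gained at 24 h with SOX2 (with 2 above NT at an unadjusted p under 0.05), and 3 were lost and 3 gained with OCT4. The 3 losses are near the 14.1% and 12.7% of all peaks tested that were lost, and 40% of all promoters were gained with OCT4. Those lost were the same 3 peaks, among them those at Meis2 and Evx1. The Evx1 promoter (chr6:52313392-52315991), a homeobox gene of the primitive streak, fell in all 3 lines at 24 h, from 22.3 and 23.5 to 7.65 and 10.2 with SOX2, from 51.9 and 49 to 22.8 and 19.2 with OCT4 and from 26.3 and 38.3 to 15.9, 20.9 and 20.2 with NANOG. Its log2 fold changes were -1.35, -1.26 and -0.79, and the NANOG call was lost in 4 alternatives. The Meis2 peak (chr2:116059787-116062519), in an intron 1.99 kb from the start of a homeobox cofactor, responded within 2 h, from 19.4 and 21.2 to 7.97 and 10.6 with SOX2 and from 45.2 and 37.5 to 20.5 and 21.2 with OCT4. The gains with OCT4 were at Meis1, Pax6 and Nkx6-1, and the median of the group was 0.01.

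Among other groups, immediate early and signal response genes had 16 very wide peaks, 10 of them promoters. Of the 16, 7 were gained and 1 lost at 24 h with OCT4, close to the 40% of all promoters gained, and 2 and 2 with SOX2 (background 9.17% gained and 14.1% lost). The Atf3 promoter (chr1:191182401-191185189), at a stress-induced factor, went from 39.5 and 33.2 to 75.9 and 51.3 with OCT4 and from 24.7 and 27.8 to 40.4 and 47.3 with SOX2, and the Bhlhe40 promoter (chr6:108658341-108661747), a clock and stress regulator, from 63.1 and 68.6 to 148 and 102 and from 63.1 and 55.5 to 92.9 and 94.7. The peak nearest Hes1 (chr16:29881545-29884097, 181 kb), a Notch target, belonged to the losses, at 37 and 36.2 in SOX2-FKBP NT cells, 17.8 and 18.7 at 2 h and 8.2 and 5.61 at 24 h, against 31.1 and 33.9 and 18.3 and 19.5 with OCT4 at 24 h, and its change differed between the lines at 24 h (-1.58, edgeR adjusted p = 0.00305). With offsets by level or in a fit of the line alone, 1 of the 16 was gained with OCT4.

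Genes of the trophectoderm, the first outer layer of the embryo, had 4 very wide peaks as listed. Of these, 1 was listed under Fgfr2 but lies at the Ctbp2 promoter (chr7:133122060-133125461). At 24 h, 14.1% of all peaks tested were lost with SOX2, 12.7% with OCT4 and 2.25% with NANOG. Only 1 of the 4 fell in all 3 lines. This intronic peak 64.6 kb from Ets2 (chr16:95766697-95769847), an ETS factor of trophoblast cells, held 20.5 and 41 in OCT4-FKBP NT cells, 13.4 and 18.5 at 2 h and 5.04 and 6.67 at 24 h. With NANOG it went from 60.7 and 46.4 to 33.6, 25.5 and 32.6 and 15.7, 15.4 and 14.5, and with SOX2 from 48.8 and 42.9 to 53 and 50.4 and 32.7 and 21.5. Its log2 fold changes at 24 h were -2.40, -1.82 and -0.76, and the SOX2 and OCT4 changes differed by 1.68 (standard error 0.40, edgeR adjusted p = 0.0111). Of 6 peaks at endoderm and mesoderm genes, the Gata6 promoter was gained with OCT4 at 24 h (0.69), where 40% of all promoters tested were. The Gata6 call was lost in 7 alternatives. With SOX2, 0 of the 6 were called, where 0 lay below and 0 above NT at an unadjusted p under 0.05 and DESeq2 called 0.

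Of 10 very wide peaks at cell cycle and growth genes, 1 was lost at 24 h with both SOX2 and OCT4, near the 14.1% and 12.7% of all peaks tested. It was an intronic peak of Igf2bp1, an RNA-binding protein of the fetus (log2 fold changes -0.72 and -1.12). Of 14 at chromatin and RNA processing genes, 4 were gained and 0 lost at 24 h with SOX2 (background 9.17% of all peaks tested and 21.1% of all promoters gained), with 0 below NT at an unadjusted p under 0.05. Of these, 2 lie by the long non-coding RNA genes Malat1 (chr19:5793248-5795823) and Neat1 (chr19:5839865-5843649), and the others are the Brd2 and Kmt2a promoters. The Malat1 peak went from 29.5 and 34.5 to 77.1 and 60 and the Neat1 peak from 43.5 and 46.3 to 95.6 and 75.1. The Neat1 peak varied strongly between libraries of other lines, with 310.2 and 118 CPM in the OCT4-FKBP NT libraries and 76.6, 887 and 113 in the NANOG-FKBP 24 h libraries, where the high value is the library with 17% mitochondrial counts.

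Of the 97 very wide gene ends in OCT4-FKBP cells, 17 (17.5%) were lost and 3 gained at 24 h (nearest Nudt4, Rnase12 and Mbp), where 10.5% and 5.04% of all gene-end peaks tested were. Ribosomal protein genes had 13 very wide peaks, 6 of them gene ends, and 0 were called at 24 h in any line. With OCT4 their median log2 fold change was -0.43 and 1 lay below and 1 above NT at an unadjusted p under 0.05, and DESeq2 called 0 lower and 1 higher. With SOX2 the median was 0.01, with 1 below and 1 above NT at that p. With NANOG it was 0.11, with 0 and 0. Of 5 peaks at replication-dependent histone genes, the Hist2h2ac promoter was gained with SOX2 at 24 h (0.60), where 21.1% of all promoters tested were.

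Short motifs were counted in 300 bp centred on the summit of every peak, on both strands. CATTGT, a SOX site, was present in 15.3% of the very wide other distal peaks and 6.31% of the very wide promoters, close to the 15.5% and 7.87% of all autosomal peaks of these classes. The POU octamer ATGCNAAT was present in 7.82% and 3.16%, against 5.19% and 2.49%. Among the very wide other distal peaks, CATTGT was found in 25% of the 76 lost at 2 h of SOX2 depletion and in 13.7% of the other 461. The octamer was found in 19.3% of the 57 lost at 2 h of OCT4 depletion and in 6.46% of the other 480. It was also more common in the SOX2 losses at 2 h, at 13.2% against 6.94% of the others. For CATTGT the shares were 17.5% in the OCT4 losses at 2 h and 15% in the others. GGGGCGGGG, an SP box, was present in 16.2% of the very wide promoters and 2.05% of the very wide other distal peaks. These shares were close to the 14.6% and 1.93% of all autosomal peaks of these classes. These shares describe letters in the sequence, without a test, and a window without a match says nothing of whether the factor binds there.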

How the data were processed

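ATACseq libraries of the SOX2-FKBP, OCT4-FKBP and NANOG-FKBP time series were analysed; of the 45 samples, counts for 31 were used, and 14 were not used here. The authors deposited raw counts of paired-end fragments per peak, after alignment to mm10 with BWA 0.7.17-r1188, SAMtools 1.10 and Picard 2.12.0 per the labels. They also deposited a MACS2 peak list called on merged libraries, whose signal column gives fold enrichment; its p and q columns were not used. Peaks were annotated with GENCODE vM21 on GRCm38.p6. Counts were tested with edgeR 4.0.16 (R 4.3.3; TMM, quasi-likelihood, Benjamini-Hochberg adjusted p under 0.05), in a fit of the 12 SOX2-FKBP libraries (160432 peaks tested) and in a fit of 27 libraries of the 3 lines (166430 tested), without SOX2-FKBP 0.5 and 1 h. Peaks needed more than 10 counts in more than 2 or more than 6 libraries. Standard errors were derived from the F statistic. Values are TMM-normalized CPM.

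Replicate numbers were checked by correlating deviations from group means: over the very wide peaks, all 15 pairs of groups in SOX2-FKBP (0.152 to 0.630) and all 6 in OCT4-FKBP (0.383 to 0.698) exceeded 0.1, and in NANOG-FKBP the 3 between treated groups (0.641 to 0.729) did and the 3 with NT (-0.069 to 0.082) did not. Over all peaks the lowest were 0.083 in SOX2-FKBP, under that limit, and 0.142 in OCT4-FKBP. The pairing of SOX2-FKBP libraries thus depends on the peaks used, and its blocked values are given beside the unblocked ones. DESeq2 1.42.0, other scalings, filters and left-out libraries were alternatives. Peaks named were the 5 widest, the 3 on each side of the width limit, the 3 largest losses and gains at 2 h and 24 h per line with at least 50 normalized counts, the listed genes' peaks, repeat-rich peaks and members of counts of 5 or fewer. Members, lists and tests were chosen with earlier results of these data known. The scripts were tested on simulated data. Some of the peaks these rules name are not reported here.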

Additional observations from a re-analysis of the deposited data

Results flagged for a closer look

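The SOX2 and OCT4 responses of some very wide peaks differed by a test of the difference itself, the SOX2 change minus the OCT4 change by edgeR. After 2 h it was lower with SOX2 in 4 peaks and lower with OCT4 in 4 (0.301% each). Over all peaks tested 1.2% and 0.374% were called. At 24 h it was lower with SOX2 in 12 and with OCT4 in 22 (0.902% and 1.65%), where 1.67% and 1.1% of all peaks tested were called. At 2 h the log2 differences were -1.32 for the Gadd45g peak, -1.45 for Etv3 and -1.47 for Abcg2, and 1.43 for Enox1, 1.55 for Opcml, 1.57 for Tmc1 and 1.20 for Gm7030. At 24 h they were -2.17 for Gadd45g, -2.43 for Etv3 and -1.64 for Cldn10, and 2.88 for Enox1, 2.39 for Camta1 and 1.80 for Opcml. The call at 2 h was lost in 10 of 16 alternatives for Gadd45g, 9 for Etv3 and Gm7030, 8 for Enox1, 7 for Opcml, 3 for Tmc1 and 2 for Abcg2, and at 24 h in 8 for Cldn10. The factor depleted and the parental line cannot be told apart in these differences.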

How the results depend on the processing

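The alternatives below were recomputed for the count of very wide peaks lost and gained in each comparison, and counts that moved by over 1.5 times are given; the others moved less. The cause was not tested. In the difference between lines, lower in SOX2 and lower in OCT4 name the line with the lower change. The DESeq2 Wald test gave for SOX2 15 lost and 0 gained (0.5 h), 5 gained (1 h), 7 gained (2 h), 11 gained (6 h) and 69 gained (24 h). DESeq2 size factors in edgeR gave for NANOG 3 gained (24 h). Scaling to total counts gave for SOX2 6 gained (0.5 h), 27 gained (1 h), 45 gained (2 h) and 72 gained (6 h), for OCT4 14 gained (2 h) and 132 gained (24 h), for NANOG 3 gained (24 h), for the difference 7 lower in SOX2 (24 h). Offsets by level gave for SOX2 5 gained (0.5 h), 32 gained (2 h) and 83 gained (24 h), for OCT4 29 gained (6 h) and 317 lost and 86 gained (24 h), for NANOG 1 gained (6 h), for the difference 48 lower in OCT4 (24 h). No filter gave for NANOG 3 gained (24 h). A fit of only the groups compared gave for SOX2 65 lost and 23 gained (0.5 h), 39 gained (2 h) and 63 gained (6 h), for OCT4 14 gained (2 h), 25 gained (6 h) and 79 gained (24 h), for NANOG 1 gained (24 h), for the difference 10 lower in SOX2 (2 h). The replicate block gave for SOX2 62 lost and 14 gained (0.5 h), 104 lost and 37 gained (1 h), 51 gained (2 h), 93 gained (6 h) and 269 gained (24 h), for OCT4 113 lost and 80 gained (2 h), 178 lost and 127 gained (6 h) and 373 gained (24 h), for NANOG 17 lost and 21 gained (2 h), 28 lost and 16 gained (6 h) and 52 lost and 33 gained (24 h), for the difference 34 lower in SOX2 and 21 lower in OCT4 (2 h) and 42 lower in SOX2 and 96 lower in OCT4 (24 h). The replicate block with GC offsets gave for SOX2 71 lost and 13 gained (0.5 h), 104 lost and 42 gained (1 h), 170 lost and 53 gained (2 h) and 197 lost and 73 gained (6 h), for OCT4 124 lost and 72 gained (2 h), 193 lost and 105 gained (6 h) and 353 lost (24 h), for NANOG 18 lost and 30 gained (2 h), 30 lost and 17 gained (6 h) and 51 lost and 38 gained (24 h), for the difference 44 lower in SOX2 and 20 lower in OCT4 (2 h) and 53 lower in SOX2 and 95 lower in OCT4 (24 h). The fit of 3 lines, added after seeing the data, gave for SOX2 47 lost and 5 gained (2 h), 65 lost and 6 gained (6 h) and 149 lost and 44 gained (24 h). The chromosome 8 share as a block, also added later, gave for NANOG 1 gained (6 h).

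With 1 library left out, the lone library of a group is assumed to vary like the other groups. The lowest and highest counts were for SOX2 1 to 18 lost and 0 to 0 gained (0.5 h), 37 to 71 lost and 3 to 48 gained (1 h), 61 to 82 lost and 5 to 16 gained (2 h), 83 to 101 lost and 5 to 25 gained (6 h) and 172 to 206 lost and 58 to 131 gained (24 h). They were for OCT4 30 to 40 lost and 4 to 14 gained (2 h), 68 to 97 lost and 18 to 48 gained (6 h) and 148 to 184 lost and 41 to 292 gained (24 h). They were for NANOG 1 to 3 lost and 0 to 1 gained (2 h), 5 to 9 lost and 0 to 1 gained (6 h) and 15 to 30 lost and 0 to 5 gained (24 h). They were for the difference 0 to 4 lower in SOX2 and 0 to 5 lower in OCT4 (2 h) and 3 to 11 lower in SOX2 and 10 to 21 lower in OCT4 (24 h). Counts moved by over 1.5 times most often without SOX2-FKBP NT replicate 2, SOX2-FKBP NT replicate 1 and OCT4-FKBP NT replicate 2. Of 157 named results, the call was lost in 94 of 1271 values and the sign turned in 3, all with the replicate block with GC offsets for OCT4 at 24 h: Dnmt3a -0.25, Pou3f1 -0.15 and Klf10 -0.050. With 1 library left out it was lost in 219 of 735 values and turned in 0. In NANOG-FKBP, same-numbered treated libraries deviated together and NT libraries did not, so the numbers were not taken as a pairing. The counts in very wide peaks ranged from 59479 in NANOG-FKBP 2 h replicate 2 to 655259 in OCT4-FKBP 6 h replicate 1, and the part of depth in the calls was not tested.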
